A study of Mus musculus with 60 samples.

Results

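The genes described here encode the proteins of the cytosolic ribosome. They were chosen by symbol as protein-coding genes named Rpl or Rps with a number, together with Rpsa and Fau, leaving out pseudogenes and the Rps6k kinases. The annotation held 84 such genes. Of them, 82 had a row among the 23440 genes of the culture table, 81 among the 23068 of the passage table and 82 among the 28773 of the single organoid table. After the filter on low counts, 81 remained in each table, of 12699, 13738 and 13927 genes tested. Rpl10l and Rpl39l had no row in any table. Rpl3l, the muscle paralog of Rpl3, had none in the passage table and did not pass the filter in the others. Of the 84, 43 are core proteins of the large subunit, 32 are core proteins of the small subunit, and 9 are paralogs or match by name only. Among those 9, Rps19bp1 encodes a binding partner of RPS19 and no ribosomal protein, so the label does not hold for it. Rplp0, Rplp1 and Rplp2, which form the stalk, fall outside the rule and are given separately.

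The libraries come from organoids grown from intrahepatic bile duct cells of C57BL/6N mice of 3 months and assess how culture method, animal, passage and the individual organoid affect expression. For the culture comparison, each of 3 cultures was made from pooled livers of 2, 4 or 3 mice and grown either in Matrigel domes or in 10% Matrigel in suspension on a shaker. For the other 2 experiments, each Set was grown from the liver of 1 mouse and kept in suspension after starting in domes. Single organoids were picked from Set 1 at passage 11 (8 kept), Sets 2 and 3 at passage 3 (10 and 5 kept) and Set 4 at passage 4 (12 kept), and bulk RNA was taken from Sets 1, 3 and 4 at passages 4 and 11. In the single organoids, set, animal and passage cannot be told apart. All cultures received HepatiCult medium, and no gene was targeted.

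Each ribosome carries a single copy of nearly every one of these proteins, so cells must make them in equal numbers. Their mRNAs are short and abundant, and most start at a C followed by a run of pyrimidines, the terminal oligopyrimidine (TOP) motif, through which mTORC1 and LARP1 set their translation and stability. Dividing epithelial cells need new ribosomes, whose assembly in the nucleolus uses a further group of factors driven by Myc. Single proteins also have roles outside the ribosome: RPL5 and RPL11 bind MDM2 and stabilise p53, RPS6 is the classic substrate of S6 kinase, and RPS27A and FAU are made fused to ubiquitin and a ubiquitin-like protein.

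The start sites of members named in the results are shown because the pyrimidine run is the sequence feature these mRNAs are known for. Each line gives 15 bases before and 15 bases from the RefSeq start on GRCm38.p6, read 5′ to 3′ on the gene's strand, with the longest run of pyrimidines in capitals. The first 9 genes hold CTTTC or CTTTT in this window and the last 5 do not.
Rpl35 (chr2:39005117-39005146, minus strand): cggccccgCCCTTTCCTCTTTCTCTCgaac
Fau (chr19:6057932-6057961, plus strand): tgcgcgcccccaCTTCTTCCTCTTTCTTga
Rps6 (chr4:86857353-86857382, minus strand): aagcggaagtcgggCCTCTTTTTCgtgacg
Rps27 (chr3:90213634-90213663, minus strand): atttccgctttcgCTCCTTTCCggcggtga
Rpl18 (chr7:45718056-45718085, plus strand): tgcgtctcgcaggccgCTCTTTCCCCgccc
Rps10 (chr17:27635230-27635259, minus strand): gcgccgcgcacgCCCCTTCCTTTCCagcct
Rpl28 (chr7:4792950-4792979, plus strand): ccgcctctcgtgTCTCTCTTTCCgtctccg
Rpl12 (chr2:32961697-32961726, plus strand): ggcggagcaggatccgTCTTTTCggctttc
Rpl13a (chr7:45128731-45128760, minus strand): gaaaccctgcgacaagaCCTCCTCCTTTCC
Rpl39 (chrX:37085208-37085237, minus strand): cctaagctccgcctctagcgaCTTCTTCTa
Rps19 (chr7:24884577-24884606, plus strand): tccgaaaTCTCgcgagactcgacgcccgac
Rpl24 (chr16:55966260-55966289, plus strand): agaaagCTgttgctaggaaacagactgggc
Rpl7l1 (chr17:46782642-46782671, minus strand): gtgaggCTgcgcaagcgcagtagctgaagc
Rps19bp1 (chr15:80264292-80264321, minus strand): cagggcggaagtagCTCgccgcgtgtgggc

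The promoter table held 65 of the 84 members among 27025 genes. A gene with several RefSeq starts counted if any of them matched, and its longest run was taken over all of them. Each line above shows a single start. The number of starts per gene was not matched between members and all genes. CTTTC or CTTTT on the sense strand within 15 bases of a start was present in 22 members (33.8%) and in 8.11% of all genes. The longest pyrimidine run in the same window had a median of 7 bases in members and 5 in all genes, and reached 8 bases or more in 41.5% and 13.9%. In the window from 250 bases before to 50 after the start, CCGGAAG, an ETS factor motif, was found on either strand in 25 members (38.5%) against 9.93% of all genes. AAGATGG, a YY1 motif, was found in 11 members (16.9%) against 7.28%. CCGGAAG and AAGATGG can share the letters AAG, and CTTTC can share a C with the reverse complement of CCGGAAG. A match describes the letters in the window and is no measure of binding.

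The libraries held 1776490 to 14761853 counts in the culture experiment, 1486347 to 5532630 in bulk passages after summing technical replicates, and 1059002 to 11175868 in single organoids. Levels are given as CPM, counts scaled to the TMM-adjusted library size, and are compared for 1 gene between libraries of the same table only. Marker sums are an exception: they were scaled to the total counts without TMM, and their ranges run over all experiments. All 6 cholangiocyte markers had counts in every group, with summed levels of 2862 to 7493 CPM. Hepatocyte markers summed to 221.7 to 2483 CPM, macrophage markers to 0.7596 to 67.35 CPM, endothelial markers to at most 2.623 CPM and mesenchymal markers to at most 0.7224 CPM, with Cdh5, Kdr, Dcn and Lrat at 0 in every group. Nothing in the labels says that organoids of a set were separate cultures, so P-values measure only the spread between these samples. In bulk RNA, fewer cells of a type and less RNA per cell cannot be told apart.

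The members took a large part of all counts in every library. In domes 1, 2 and 3 they made up 23.89%, 25.81% and 18.22% of the counts, and in suspension cultures 1, 2 and 3 18.93%, 19.93% and 18.01%. Domes 1 and 2 lay above all suspension cultures, and dome 3 fell among them, so the groups overlapped. The mean was 22.6% ± 3.95 (SD, n = 3) in domes and 18.96% ± 0.96 in suspension, a difference of 3.69 percentage points. Without dome 3 the difference was 5.9 points, and without dome 2 it was 2.1. Large subunit members took 11.4% ± 1.95 in domes and small subunit members 11.1% ± 1.99, so both subunits had nearly the same share.

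**Figure D1:**
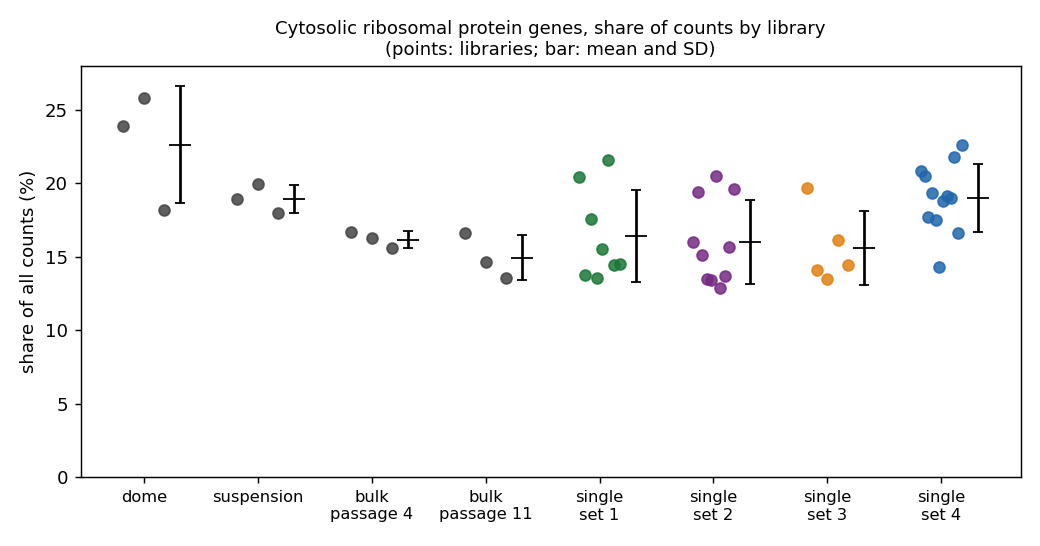
Share of all counts taken by the cytosolic ribosomal protein genes (%, vertical axis) in each library, by group, with points for libraries (technical replicates summed) and the mean and SD beside them. Domes 1 and 2 lie above 20%, as do 2 organoids of Set 1, 1 of Set 2 and 4 of Set 4, and all libraries lie between 12.87% and 25.81%.

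The comparison of domes with suspension cultures asks how the culture method changes expression. Relative to suspension, 17 of the 81 tested members were higher in domes and 0 were lower (edgeR quasi-likelihood F-test, Benjamini-Hochberg adj. P-value below 0.05). Over all genes tested, 29.8% were called, 15% higher and 14.7% lower. The count of 17 thus stands near the background in its direction, and the count of 0 below it. At an unadjusted P-value below 0.05, 27 members were higher and 1 was lower, and limma-voom called 1 and DESeq2 0 members lower. The log2 fold-change was above 0 for 76 of 81 members, against 48.1% of all genes tested. Its median over the members was 0.53, a 1.44-fold difference, against -0.04 over all genes. Domes and suspension cultures did not overlap for 21 members in the higher direction, where the share over all genes was 21.6%, and for 1 in the lower direction, where it was 25.8%.

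The called members were spread over both subunits, with 8 of 43 large subunit and 8 of 32 small subunit proteins, and Rps27rt among the paralogs. Rpl32, a large subunit protein, read 7554, 15080 and 5506 CPM in domes 1 to 3 and 3644, 3755 and 3108 CPM in suspension cultures 1 to 3. The lowest dome lay above the highest suspension culture, and dome 2 was far above the other domes. The log2 fold-change was 1.42 (SE 0.38, adj. P-value 0.0193), the largest among the members. Rpl35, which sits near the exit of the nascent chain, read 2566, 4980 and 2463 CPM in domes and 1315, 1412 and 1173 CPM in suspension. Its log2 fold-change was 1.36 (SE 0.31, adj. P-value 0.0107), again without overlap.

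Rps19, mutated in Diamond-Blackfan anaemia, read 5286, 11790 and 5681 CPM in domes and 3094, 3181 and 2749 CPM in suspension. All domes were higher, and the log2 fold-change was 1.33 (SE 0.34, adj. P-value 0.0173). Rpl41, which encodes one of the shortest proteins known in mammals, read 7874, 21290 and 6639 CPM against 5075, 5072 and 4209 CPM, a 2.49-fold difference (adj. P-value 0.0439). Dome 2 stood far above the others, and without it the log2 fold-change was 0.60 and the adj. P-value 0.0774. Rps14, a small subunit protein lost in the 5q- syndrome, read 9540, 16650 and 6316 CPM in domes and 4375, 5072 and 3826 CPM in suspension, the log2 fold-change being 1.29 (SE 0.37, adj. P-value 0.0256).

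Members with known roles beyond translation behaved unequally. Fau, the ubiquitin-like fusion that yields RPS30, read 4692, 7280 and 2638 CPM in domes and 2105, 2234 and 1898 CPM in suspension, and rose by 1.23 on the log2 scale (SE 0.35, adj. P-value 0.026). Rps6 read 2546, 3419 and 1905 CPM against 1338, 1427 and 1253 CPM and rose by 0.97 (SE 0.26, adj. P-value 0.0213). Both were higher in every dome than in any suspension culture. Rpl3, near the peptidyl transferase centre, read 3235, 4175 and 3287 CPM against 2146, 2121 and 2076 CPM, the log2 fold-change being 0.75 (SE 0.23, adj. P-value 0.0347), and Rps27 rose by 0.97 (SE 0.32, adj. P-value 0.0422).

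The p53 regulators did not pass the test. Rpl11 read 5616, 4279 and 2785 CPM in domes and 2820, 3101 and 2880 CPM in suspension (log2 fold-change 0.53, SE 0.29, adj. P-value 0.194), with dome 3 below every suspension culture. Rpl5 read 1219, 720.7 and 639.5 CPM against 1067, 1092 and 943.5 CPM (log2 fold-change -0.26, SE 0.27, adj. P-value 0.484). The same was true of Rpsa, the laminin receptor homologue (0.28, adj. P-value 0.487), of Rps4x (0.21, 0.643), of Rpl22 (0.29, 0.456), of Rps27a (0.51, 0.189) and of Rpl39 (0.73, 0.136), in each case as log2 fold-change and adj. P-value.

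Rpl13a was the only member whose 3 domes all lay below the suspension cultures, and is named here because its values were seen. It read 271.2, 173.8 and 142.4 CPM in domes and 321.5, 319.9 and 289.1 CPM in suspension, the log2 fold-change being -0.65 (SE 0.25, adj. P-value 0.071). With a block for the replicate number, taken as a pairing of these cultures, its adj. P-value was 0.0267, so that 1 member was lower and 20 were higher. Rpl13a has a named pseudogene whose row held 0.638 times as many counts as the gene itself, and how reads were divided between them was not tested.

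**Figure D2:**
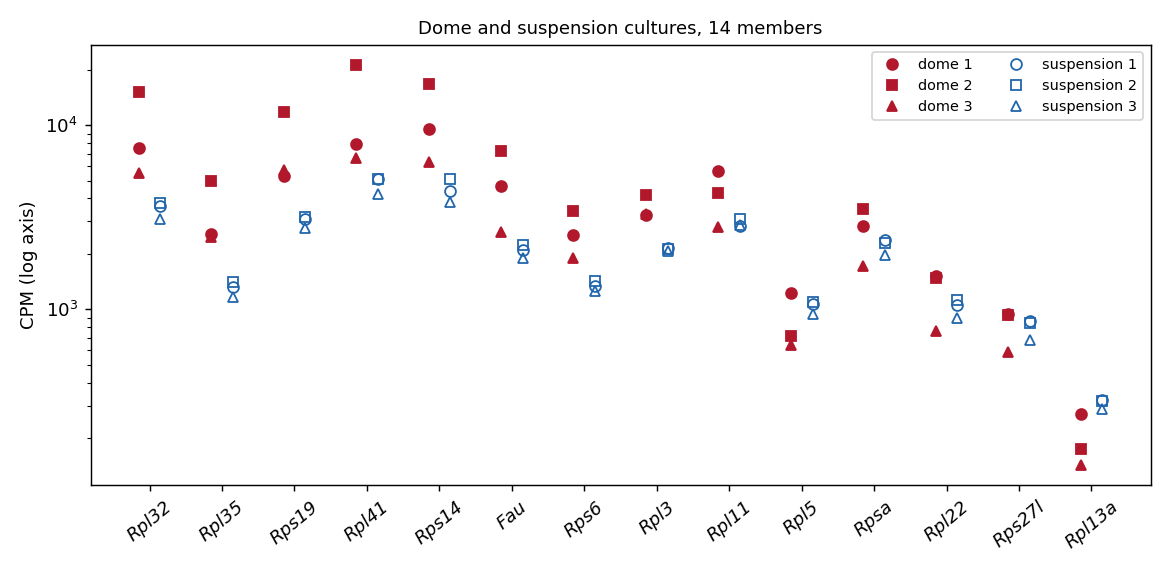
CPM (log axis) of 14 members in 3 dome (filled red) and 3 suspension cultures (open blue), with marker shapes for replicates 1 to 3. From Rpl32 to Rpl3 all domes lie above all suspension cultures, dome 2 being the highest of the domes, whereas Rpl11, Rpl5, Rpsa, Rpl22 and Rps27l overlap and Rpl13a lies lower in all domes.

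Of the 6 tested paralogs and near relatives, 5 did not pass the test. The log2 fold-change was 0.11 for Rpl22l1, 0.03 for Rps27l, a p53-inducible paralog of Rps27, -0.10 for Rpl7l1, 0.01 for Rpl36al and 0.12 for Rps19bp1, with adj. P-values of 0.634 to 0.983. Rps27rt, a retrocopy of Rps27, rose by 0.97 (SE 0.28, adj. P-value 0.0264). It nearly shares its sequence with Rps27, so how reads were split between the 2 is uncertain.

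The 3 domes were not alike. Dome 1 lay above all suspension cultures for 77 of 81 members and dome 2 for 74, but dome 3 did so for 23, lay among them for 28 and below them for 30. Dome 2 was the highest dome for 60 members. No share over all genes was taken for these positions, so a shift of a whole library cannot be told apart from one of the members. Without dome 3, 51 members were called higher instead of 17, and without suspension culture 1, 2 or 3 the number was 0, 1 and 0. Over all genes, 3779 were called with all 6 libraries and 3785 without dome 3. Without suspension culture 1, 2 or 3, 1893, 2209 and 1926 of all genes were called, so calls fell there in general. Domes 2 and 3 were the shallowest of the 6 libraries, and the mitochondrially encoded share of counts was 1.64% to 2.02% in domes and 3.72% to 4.02% in suspension. Their part in the result was not tested. With every library thinned to the smallest total, 17 members were higher and 1 was lower, and with mitochondrial genes left out of the total the share differed by 3.36 points.

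Transcript length and level moved with the result as well. Members had a median transcript length of 712.75 bases and 67 of 84 were under 1000 bases, while the median over the genes with a protein-coding transcript tested in single organoids was 2114 bases. Among other genes with a mean log2 CPM of 7 or more, the median log2 fold-change in domes was 0.44 for the 394 under 1000 bases, with 141 higher and 26 lower. It was 0.32 for the 509 longer ones, with 172 higher and 53 lower. Of the 81 members, 17 were higher and 0 lower. The members' median of 0.53 is thus close to that of other short and abundant transcripts. The part of length and level in the result was not tested.

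The other genes of the pathway moved in different directions. Of 42 ribosome biogenesis factors, 19 were lower in domes and 1 was higher, with a median log2 fold-change of -0.74. Among them were nucleolin (Ncl, -1.64, SE 0.26, adj. P-value 0.00278), Nop58, a box C/D snoRNP protein (-1.71, SE 0.34, adj. P-value 0.00627) and nucleophosmin (Npm1, -1.13, SE 0.21, adj. P-value 0.00488), whereas Sbds, which acts in 60S maturation, was higher (0.82, SE 0.22, adj. P-value 0.019). Of 10 S phase and mitosis markers, 9 were lower, with a median of -1.38. The ribosomal proteins and the factors that assemble ribosomes thus had opposite signs of their medians.

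Of the stalk genes, Rplp0 was higher (1.00, SE 0.33, adj. P-value 0.0461), and Rplp2 did not pass the test (0.53, SE 0.30, adj. P-value 0.205). Of 32 translation factors, 6 were higher and 4 lower with a median of 0.02. The elongation factor Eef2 was among the higher ones (1.48, SE 0.24, adj. P-value 0.00297) and Eif3a, the largest subunit of eIF3, among the lower ones (-1.08, SE 0.22, adj. P-value 0.00659). Mitochondrial ribosomal proteins, pseudogenes left out, gave 6 higher and 3 lower of 77 and a median of -0.03. In the list of Myc and mTORC1 control, the translation repressor Eif4ebp1 was higher (1.31, SE 0.35, adj. P-value 0.0208), and Larp4 (-1.79, SE 0.27, adj. P-value 0.0022) and the S6 kinase Rps6kb1 (-0.70, SE 0.23, adj. P-value 0.0447) were lower, of 16 genes. Myc itself gave 0.21 (adj. P-value 0.597) and Larp1 -0.72 (adj. P-value 0.064).

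The called members were compared by their start motif, with no test. Of the 12 called members with a start window, 6 held CTTTC or CTTTT, as did 13 of the 50 not called. The median log2 fold-change was 0.53 for the 19 tested members with the motif and 0.55 for the 43 without it.

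**Figure D3:**
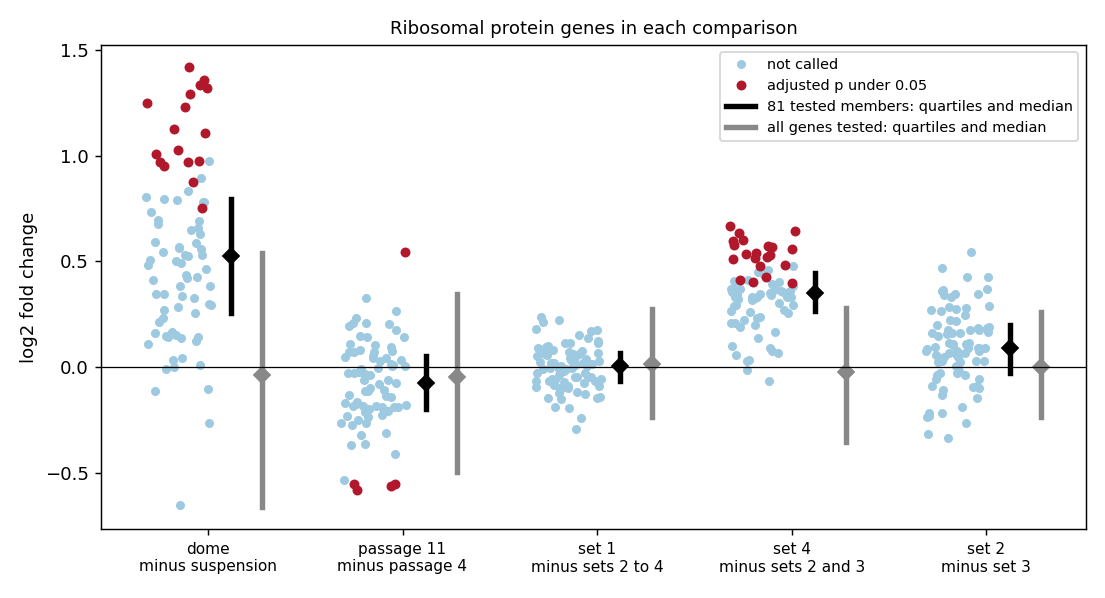
Log2 fold-change (vertical axis) of the 81 tested members in each of the 5 comparisons, in red where the adj. P-value is below 0.05 and in light blue otherwise, with bars for the quartiles and diamonds for the median of the members (black) and of all genes tested (grey). The members' median is 0.53 for domes and 0.35 for Set 4, and within 0.1 of 0 in the other 3 comparisons.

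The bulk comparison asks what changes between passage 4 and passage 11 of the same sets. Every direction given for it rests on the passage labels as deposited, which are in doubt because the S phase and mitosis markers below moved opposite to those in the single organoids of Set 1. Exchanged labels would reverse each direction, and whether they are exchanged was not tested. Set 1 differs from Sets 2 to 4 in the mouse as well as the passage, and single organoids are set beside bulk RNA. The opposite signs therefore cannot decide it. The members took 16.71%, 16.26% and 15.57% of the counts of Sets 1, 3 and 4 at passage 4, and 16.59%, 14.66% and 13.59% at passage 11. The share was lower at passage 11 in all 3 sets, by little in Set 1, and the groups overlapped. The means differed by -1.23 percentage points, by -2.05 without Set 1 at passage 11 and by -0.55 without Set 4 at passage 11. Technical replicates gave shares within 1 percentage point of each other, such as 16.41% and 16.83% for Set 1 at passage 11.

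At passage 11, 1 of 81 members was higher and 4 were lower, where 20.3% of all genes were called, 10.1% in each direction. The median log2 fold-change was -0.08 (-0.05 over all genes), and 30 members were above 0, against 46.6% of all genes. Other genes with a mean log2 CPM of 7 or more had a median of 0.24 under 1000 bases (n = 431), with 127 higher and 30 lower. At 1000 bases or more the median was also 0.24 (n = 590), with 171 higher and 60 lower. The members' median thus lay below that of other abundant genes, and the part of level and length was not tested. The passages did not overlap for 5 members in the higher direction (19.2% of all genes) and for 6 in the lower direction (20.3%). Within Set 1, 52 members were higher at passage 11, with a median log2 ratio of 0.10, against 14 in Set 3 (-0.17) and 19 in Set 4 (-0.21). The members therefore did not move in 1 direction over the sets. No share over all genes was taken within a set, so a shift of a whole library cannot be told apart from one of the members.

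As labelled, the gene that rose was the paralog Rpl7l1, whose product takes part in early assembly of the large subunit. It read 175.9, 158.1 and 165.4 CPM in Sets 1, 3 and 4 at passage 11 and 103.7, 121.9 and 117 CPM at passage 4, the log2 fold-change being 0.54 (SE 0.13, adj. P-value 0.0168). All values at passage 11 were above those at passage 4. Rpl39, a short protein of the exit tunnel, read 1404, 1266 and 893.6 CPM at passage 11 and 1923, 1772 and 1654 CPM at passage 4, and fell by 0.58 on the log2 scale (SE 0.18, adj. P-value 0.0421). Rpl24, which forms a bridge between the subunits, read 85.72, 73.77 and 61.06 CPM against 128.3, 97.69 and 103.6 CPM and fell by 0.57 (SE 0.16, adj. P-value 0.0359).

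Rps27, a zinc finger protein of the small subunit, read 2095, 1592 and 1357 CPM at passage 11 and 2586, 2566 and 2252 CPM at passage 4, and fell by 0.55 (SE 0.18, adj. P-value 0.0493). Its retrocopy Rps27rt gave nearly the same values, 2128, 1594 and 1402 CPM against 2645, 2631 and 2243 CPM (-0.55, SE 0.18, adj. P-value 0.0498), and the 2 are not independent where reads are shared. Without Set 1 at passage 11, 11 members were lower, and without any other of the 6 samples 0 were lower. Over all genes, 2784 were called with all 6 samples and 2121 without Set 1 at passage 11. Without any other sample, 1552 to 2244 of all genes were called. Without Set 4 at passage 4, Rpl7l1 had an adj. P-value of 0.0501, so that 0 were higher.

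The remaining members named by role did not pass the test. Rps6 read 1177, 715.6 and 706 CPM at passage 11 and 926.2, 804.2 and 733.2 CPM at passage 4 (log2 fold-change 0.08, adj. P-value 0.827), with only Set 1 higher at passage 11. Rps27l, the p53-inducible paralog, read 2320, 1415 and 1095 CPM against 1281, 1309 and 1271 CPM (0.32, adj. P-value 0.363), again highest in Set 1. Rpl22l1 read 427.5, 299.8 and 217.5 CPM against 530.1, 439.9 and 406.3 CPM (-0.54, SE 0.22, adj. P-value 0.116) and was lower at passage 11 in each set. The block for the set, each set being 1 mouse, gave it an adj. P-value of 0.0191, and with it 6 members were lower and 1 was higher.

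Around these genes, 12 of 42 ribosome biogenesis factors were higher at passage 11 and 0 lower (median 0.16), among them the snoRNP proteins Nolc1 (0.82, SE 0.15, adj. P-value 0.00527) and Dkc1 (0.73, SE 0.14, adj. P-value 0.00705). Mitochondrial ribosomal proteins gave 28 higher and 0 lower of 77, with a median of 0.32. Of the S phase and mitosis markers, 9 of 10 were higher at passage 11 as labelled, with a median of 1.34. Translation factors gave 4 higher and 3 lower of 32, Larp1 was the single called gene of the Myc and mTORC1 list (-0.46, SE 0.15, adj. P-value 0.0463), and none of the stalk genes Rplp0, Rplp1 and Rplp2 was called.

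The single organoids show how the members vary between sets, each of 1 mouse at 1 passage, and between organoids of a set. In Set 1 their share of counts ranged from 13.57% to 21.62% (16.4% ± 3.12, SD, n = 8), in Set 2 from 12.87% to 20.51% (15.99% ± 2.86, n = 10) and in Set 3 from 13.5% to 19.71% (15.6% ± 2.51, n = 5). Set 4 ranged from 14.32% to 22.64% (19.01% ± 2.31, n = 12). All sets overlapped, and the mean of Set 4 was 3.23 percentage points above the mean of Sets 2 and 3, while Set 1 differed from the mean of Sets 2 to 4 by -0.438 points. With all 42 deposited organoids the difference for Set 4 was 1.63 points, and without organoid 1 of Set 3 that for Set 1 was -0.0935 points.

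Between Set 1, at passage 11, and Sets 2 to 4, no member was called in edgeR, limma-voom or DESeq2, where 16.2% of all genes were called, 9.35% higher and 6.84% lower. At an unadjusted P-value below 0.05 the number was also 0 in edgeR. The log2 fold-changes ran from -0.29 (Rpl22l1, adj. P-value 0.375) to 0.24, the median was 0.01, and 42 of 81 members were above 0 (51.5% of all genes). No member was without overlap (0.215% of all genes in the higher and 0.0503% in the lower direction). Between Sets 2 and 3, both at passage 3, 0 members were called by any of these tools (4.04% over all genes, 2.12% higher and 1.92% lower), 3 had an unadjusted P-value below 0.05, and the median was 0.09. Of the 81, 59 were above 0 (50.2% of all genes), and 0 were without overlap (0.237% and 0.316%). In the comparison of Set 1 with Sets 2 to 4, 7 of the 10 S phase and mitosis markers were lower (median -0.53).

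Set 4 differed from Sets 2 and 3. There, 21 of 81 members were higher and 0 lower, where 17.3% of all genes were called, 7.27% higher and 9.99% lower. At an unadjusted P-value below 0.05, 55 members were higher and 0 lower, and limma-voom and DESeq2 also called 0 lower. The log2 fold-change was above 0 for 79 of 81 members (48.2% of all genes), with a median of 0.35, a 1.27-fold difference. Of the large subunit 12 of 43 and of the small subunit 9 of 32 members were called, and of the 6 tested paralogs 0. Organoids of the sets overlapped for all 81, where 0.00718% of all genes were without overlap in the higher and 0.0359% in the lower direction.

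Rpl18, a large subunit protein, had a lowest, median and highest level of 1318, 2152 and 3277 CPM in Set 4, against 1032, 1289 and 1611 CPM in Set 2 and 1104, 1263 and 2227 CPM in Set 3. The median of Set 4 lay above every organoid of Set 2, and the log2 fold-change was 0.67 (SE 0.15, adj. P-value 0.00295). Rps10, at the mRNA entry side of the small subunit, had 975.2, 1796 and 2481 CPM in Set 4 against 808.8, 1125 and 1490 CPM in Set 2 and 859.5, 1009 and 1747 CPM in Set 3 (0.64, SE 0.16, adj. P-value 0.00488). Rpl28 had 1421, 2686 and 3379 CPM against 1084, 1623 and 1932 CPM and 1261, 1565 and 2751 CPM (0.63, SE 0.17, adj. P-value 0.0111). In each of the 3 the lowest organoid of Set 4 fell within the range of Sets 2 and 3.

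Rpl29, a lysine-rich large subunit protein, had 606, 1062 and 1464 CPM in Set 4, against 469.2, 695.5 and 1088 CPM in Set 2 and 461.1, 603.5 and 1056 CPM in Set 3 (0.60, SE 0.17, adj. P-value 0.0148). Rpl12, at the base of the stalk, gave 755.4, 1514 and 2217 CPM against 661, 901.1 and 1165 CPM and 677.3, 1026 and 1394 CPM (0.60, SE 0.16, adj. P-value 0.00994). The remaining called members had log2 fold-changes of 0.40 (Rpl27a, adj. P-value 0.0496) to 0.58 (Rps15, adj. P-value 0.00741).

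None of the members named by role was among them. Rps6 (0.34, adj. P-value 0.185), Rps19 (0.33, 0.162), Rps27a (0.39, 0.164), Rpl11 (0.45, 0.0584), Fau (0.27, 0.0977), Rpsa (0.35, 0.0911) and Rps27 (0.37, 0.14) had positive log2 fold-changes that missed the threshold, each given with its adj. P-value. Rpl5 (0.08, 0.755), Rpl3 (0.13, 0.582), Rpl22l1 (0.03, 0.95) and Rps19bp1 (-0.02, 0.941) lay near 0. The medians for Rps19bp1 were 155.7, 155.3, 143.8 and 150.9 CPM in Sets 1 to 4.

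**Figure D4:**
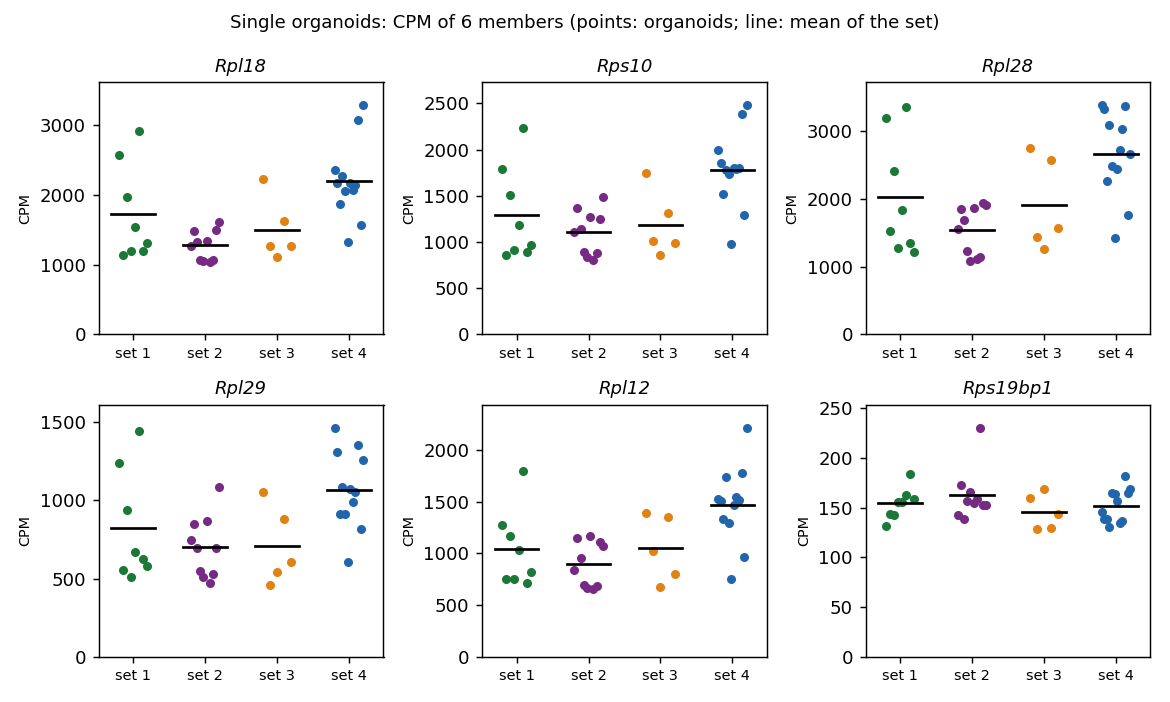
CPM of 6 members in the single organoids of Sets 1 to 4 (points), with the mean of each set as a line and axes starting at 0. For Rpl18, Rps10, Rpl28, Rpl29 and Rpl12 the mean is highest in Set 4 with overlap between sets, and for Rps19bp1 the means are 145.8 to 162.4 CPM.

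The number of called members depended on which organoids entered. With all 42 organoids deposited, 1 member was higher in Set 4, and without organoid 1, 3, 4 or 6 of Set 3 the number was 32, 12, 11 and 12. Calls over all genes moved as well, from 2404 with the kept organoids to 1146 with all 42. Without organoid 1, 3, 4 or 6 of Set 3 they were 2697, 1587, 1829 and 1801. As in domes, short transcripts moved with the result: other genes with a mean log2 CPM of 7 or more had a median log2 fold-change of 0.21 under 1000 bases (n = 356) and -0.10 at 1000 bases or more (n = 688). The part of length in the result was not tested. Thinned to the smallest total, 16 members were higher and 0 lower.

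Beside the members, Rplp0 and Rplp2 were higher in Set 4 (0.57, SE 0.17, adj. P-value 0.0227, and 0.54, SE 0.15, adj. P-value 0.0146). Of the translation factors, 6 of 32 were higher, among them Eef1a1 (0.51, SE 0.12, adj. P-value 0.00392) and Tpt1 (0.53, SE 0.16, adj. P-value 0.0195), both TOP mRNAs, and 4 were lower. Of 42 biogenesis factors, 9 were lower and 1, fibrillarin (Fbl), higher, with a median of -0.30. Mitochondrial ribosomal proteins gave 15 higher and 1 lower of 77, the S phase and mitosis markers 2 higher and 0 lower of 10, and the Myc and mTORC1 list 3 lower of 16, namely Larp1, Larp4 and Rps6kb1. Larp1, which binds TOP mRNAs, gave -0.65 (SE 0.18, adj. P-value 0.0115). With the start motif, the median of the members was 0.37, and without it 0.33.

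Within a set, the members varied together from organoid to organoid. After removing the mean of each set, the log2 CPM of 2 members correlated across the 35 organoids with a median r of 0.821, and 97.7% of pairs had an r above 0. For all genes with a mean log2 CPM of 7 or more the median was 0.0434 and 51.7% of pairs were above 0. These correlations are descriptions, since the points share library, depth and normalisation. The median SD of the members' log2 CPM within sets was 0.381, against 0.368 for genes with a mean log2 CPM of 7 or more (n = 1316) and 0.506 for all genes. By set the members' median SD was 0.434, 0.36, 0.325 and 0.314 in Sets 1 to 4.

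The members were not equally alike. Rpl32 and Rps23 were among those that followed the mean of the core members most closely (r of 0.978 and 0.975). Rps19bp1, which encodes no ribosomal protein, did not follow it (r of -0.112), and the 6 tested paralogs had a median r of 0.384 among themselves. Among core members, Rpl24 (0.141), Rpl23a (0.297), Rpl6 (0.346) and Rpl5 (0.434) were among those that followed least. Rpl24 was listed at only 7.05 to 18.8 CPM in single organoids, so counting error weighs more on it than on the others.

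The widest spread was that of Rps4x, the X-linked form of the small subunit protein RPS4, with an SD of 0.678 on the log2 scale. Its level ran from 2371 to 10230 CPM in Set 1, from 2046 to 11160 CPM in Set 2, from 2739 to 5483 CPM in Set 3 and from 2960 to 8208 CPM in Set 4. Rpl36a came next, with an SD of 0.595 and 914.9 to 4442 CPM in Set 2. The narrowest was Rpl14, with an SD of 0.152 and 3311 to 5382 CPM over all sets.

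**Figure D5:**
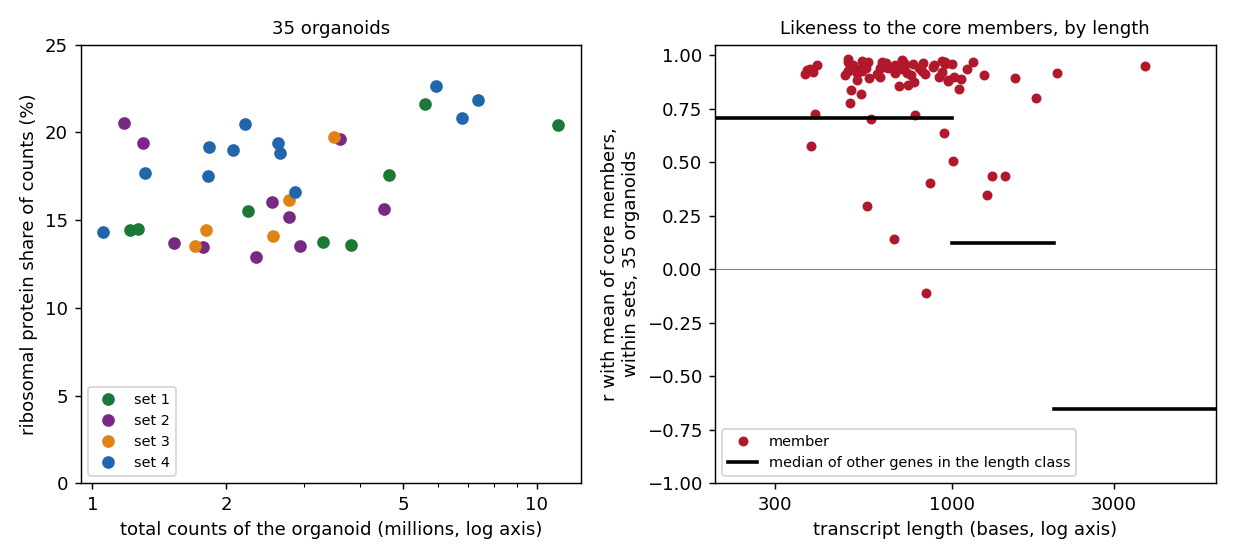
Left, share of counts of the members (%) against total counts (log axis) for the 35 organoids, coloured by set. Right, correlation of each tested member with the mean of the core members across the 35 organoids within sets, against transcript length (bases, log axis), with black lines for the median of other genes with a mean log2 CPM of 7 or more in 3 length classes (0.709, 0.121 and -0.653).

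Depth, mitochondrial share and transcript length moved with this shared pattern. The share of counts correlated with log2 total counts with r of 0.718 in Set 1 (rho 0.595, n = 8) and 0.807 in Set 4 (rho 0.692, n = 12), and r of 0.578 and 0.773 without the 2 organoids farthest from the median depth. In Set 2 r was -0.243 (rho -0.115, n = 10) and 0.588 without those 2 organoids, so the sign there rests on them, and Set 3 has too few organoids. With the mitochondrially encoded share of counts, r was -0.604 in Set 1 (rho -0.524), 0.121 in Set 2 (rho 0.273) and -0.46 in Set 4 (rho -0.552), and -0.708, 0.738 and -0.538 without the 2 organoids farthest from its median. Among other genes with a mean log2 CPM of 7 or more, the correlation with the mean of the core members had a median of 0.709 under 1000 bases (n = 356), 0.121 from 1000 to under 2000 bases (n = 345) and -0.653 at 2000 bases or more (n = 343). The part of depth, mitochondrial share and length in the pattern was not tested.

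The fixed lists took different sides of this pattern, again as correlations with the mean of the core members over 35 organoids. For comparison, the median r was 0.309 for other genes with a mean log2 CPM of 7 or more and -0.0357 for all genes other than members. In the length classes above it was 0.709, 0.121 and -0.653. The lists were not matched to other genes by length or level, so a median within this span is not particular to a list. Translation factors had a median r of 0.631, from -0.821 (Eif3a) to 0.959 (Eif3k), and Tpt1 (0.952) and Eef1b2 (0.947) were close to the members. Mitochondrial ribosomal proteins had a median of 0.708, and the stalk genes Rplp0 and Rplp2 stood at 0.93 and 0.95. Ribosome biogenesis factors had a median of -0.494, from -0.835 (Ubtf, the activator of RNA polymerase I) to 0.856 (Nop10). The S phase and mitosis markers had a median of 0.218 with Top2a at -0.883 and Pcna at 0.564, and the Myc and mTORC1 list 0.0734. Members with the start motif had a median of 0.928 (n = 19) and those without it 0.916 (n = 43).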

How the data were processed

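The authors deposited integer gene counts for 60 libraries of 3′-end RNA-seq with UMIs in 3 tables. Per the labels they used STAR, SAMtools 1.9 and featureCounts with mm10 and GRCm38. According to the methods, libraries were down-sampled in zUMIs and single organoid input was normalised by Actb qPCR. No source used here says whether the deposited counts are UMIs or reads. Of 42 single organoids, the 35 kept by the study were used, and technical replicates were summed.

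Gene symbols, coordinates and lengths came from GENCODE on GRCm38. Low genes were removed with filterByExpr (minimum count 3), libraries were scaled by TMM, and edgeR 4.0.16 (R 4.3.3) gave quasi-likelihood F-tests, with Benjamini-Hochberg adjustment over all genes and, in the single organoids, over 3 contrasts of 1 fit. SEs came from the F statistic. limma-voom (limma 3.58.1) and DESeq2 1.42.0 were alternatives. Log2 CPM used an offset of 0.5 counts. Scripts were tested on simulated data, in which a few genes, picked at random from all genes passing the filter, had a log2 change of 1. Of these genes, 6.04% were called in domes, 36.1% between passages and 66.1% in Set 1 against Sets 2 to 4. False calls were 9.09%, 12.8% and 1.96% of those made. In the data themselves 29.8% of all genes were called in domes, and the members are abundant. These shares are therefore no measure of how often a changed member would be called. A member that did not pass the test, in domes or elsewhere, is not shown to be unchanged.

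The members, lists and comparisons were chosen with earlier results of these data known. Named genes were, per comparison, the 5 largest called changes in each direction, members fixed by role, and the called genes of other lists with the largest change. Further genes of these lists, other members and Rpl13a were named after their values were seen. The alternatives were RLE size factors, scaling without the members, no filter, the 2 other tools, thinning, a replicate block, 1 technical replicate, all organoids, adjustment within each contrast and leaving out replicates. The split by length and the removal of pseudogenes from the mitochondrial ribosomal proteins were added after seeing the data. Same-numbered cultures deviated together only weakly (residual r of 0.128, 0.126 and 0.145). The numbers were taken to pair domes with suspension cultures, which the labels do not state. Sets at passages 4 and 11 are paired by the mouse (residual r of 0.099, 0.025 and 0.0774).

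Pseudogenes with -ps names had rows for 55 or 56 members and held more counts than the member for 2, 8 and 3 members in the culture, passage and single organoid tables, so the counting could split reads between such copies. Their rows took part in library totals and not in the members. Results for some genes are not reported here.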

Additional observations from a re-analysis of the deposited data

Results flagged for a closer look

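In 4 of 75 groups of a named member, 1 organoid stood apart from the rest of its set, where chance gives about 1 in 20. Organoid 1 of Set 3 had 2086 CPM of Rpl39, 2504 CPM of Rps27 and 3176 CPM of Rps27a, with gaps to the nearest organoid of 0.772, 0.727 and 0.849 of the range of the set. The 3 come from 1 organoid, which also had the highest share of members in its set, 19.71%. Organoid 9 of Set 2 had 230.2 CPM of Rps19bp1, with a gap of 0.631 of the range, and a member share of 13.7%.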

How the results depend on the processing

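No change of sign of a called result was found. Where neither setting called a result, a move of its sign was not counted as a change. In domes, 1 member (Rpl13a) was lower instead of 0 without the filter, with limma-voom, after thinning and with the replicate block, and leaving out each replicate gave 0 to 1 lower and 0 to 51 higher members. Between passages, RLE size factors gave 2 and technical replicate 1 alone gave 1 lower member, and leaving out each sample gave 0 to 11 lower and 0 to 1 higher. In Set 4 against Sets 2 and 3, the number higher was 13 without the filter, 32 with DESeq2, 7 with a block for the organoid number, which only names organoids (median residual r 0.0403), and 1 with all organoids, and 11 to 32 when leaving out each organoid of Set 3. Apart from the 7 in Set 4, the block by number gave 20 higher and 1 lower member in domes, and 1 higher and 6 lower at passage 11. For Set 1 against Sets 2 to 4, and for Set 2 against Set 3, it gave 0 members, as without it. Leaving out 1 sample left 2 samples in its group. The number of all genes called then was 1893 to 3837 in domes, against 3779 with all libraries. Between passages it was 1552 to 2244, against 2784. In Set 4 it was 1587 to 2697 when leaving out each organoid of Set 3, and 1146 with all organoids, against 2404. Without the filter, the median of all genes moved from -0.04 to -0.26 in domes and from -0.05 to -0.15 between passages. Scaling by total counts makes all levels relative, so a share of counts says nothing of the amount of ribosomal protein mRNA per cell.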

Other observations

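Rps27rt, a retrocopy of Rps27, was listed at 1402 to 2645 CPM in the bulk passage libraries, beside 1357 to 2586 CPM of Rps27, and at 330 to 963.4 CPM in the culture libraries, beside 1535 to 4717 CPM of Rps27. Summed over libraries, the 2 genes held 56363 and 55624 counts in the passage table, 20610 and 96155 in the culture table and 87028 and 241058 in the single organoid table. Rpl24 was listed at 61.06 to 128.3 CPM in the bulk passage libraries and at 5.499 to 17.6 CPM in the culture libraries. The tables were normalised separately, and no test was made between them.

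Rps6 had 4 named pseudogene rows, which together held 2.99 times as many counts as Rps6 itself in the single organoid table. For Rpl15 and its 5 rows the ratio was 3.56, and for Rpl10a and its 3 rows it was 1.41.

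The passage labels of the bulk libraries are in doubt. The S phase and mitosis markers had opposite signs in the 2 experiments that reach passage 11, with 9 of 10 higher at passage 11 in the bulk libraries as labelled and 7 of 10 lower in the single organoids of Set 1 than in those of Sets 2 to 4. Set 1 differs from Sets 2 to 4 in the mouse as well as the passage, and single organoids are set beside bulk RNA. The opposite signs therefore cannot decide whether the labels are exchanged. The members had medians of -0.08 and 0.01 in these comparisons, and the sign of the first would turn if the labels were exchanged.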
